A study of Homo sapiens with 2 samples.

Results

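The genes described here encode the proteins of the mitochondrial ribosome, and were measured in A549, a widely used cell line from a human lung adenocarcinoma. They were taken by name, as every symbol made of MRPL or MRPS, a number and at most 1 letter. This gave 77 of the 24462 distinct symbols in the count files, of which 50 belong to the large ribosomal subunit, 26 to the small subunit and 1, MRPS36, to neither. Expression was measured in 1 library from cells transfected with ADGRF4 siRNAs and 1 library from cells transfected with control siRNAs, ADGRF4 being an adhesion G protein-coupled receptor. Cells of both libraries were grown in the same serum-containing medium, and the labels give no genetic modification of the line, no time after transfection and no siRNA sequence. Only the 3′ end of each polyadenylated transcript was read.

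The mitochondrial ribosome, or mitoribosome, translates the few messenger RNAs made from mitochondrial DNA, which encode membrane subunits of the respiratory chain and of ATP synthase. Its RNAs come from the mitochondrial genome, but all of its proteins are encoded in the nucleus, made in the cytosol and imported. Part of these proteins have homologues in bacterial ribosomes, and others are found only in mitochondria. MRPS36 keeps its ribosomal name but is now placed in the oxoglutarate dehydrogenase complex of the citric acid cycle.

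The ADGRF4 siRNA library held 9825320 counts and the control siRNA library 10396047. With 1 library per treatment there was no replicate, no test between treatments and no p-value, and every difference is between these 2 libraries. ADGRF4 had 1 count in the ADGRF4 siRNA library and 3 in the control siRNA library, so the silenced gene gives no check of the labels. The epithelial keratin genes KRT8 and KRT18 were read in both (7529 and 79367 counts with ADGRF4 siRNA, 13756 and 58990 with control siRNA), and EPCAM had 38 and 75 counts. The blood cell marker PTPRC had 2 and 7 counts, the endothelial marker PECAM1 1 and 0, and the fibroblast marker COL1A1 45 and 50. In bulk RNA, fewer cells with a transcript and less transcript per cell cannot be told apart.

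The mitoribosomal protein genes did not move as 1 block. Levels are given as counts or as CPM, counts relative to library size, here with the TMM factors of edgeR. The log2 ratio is ADGRF4 siRNA over control siRNA, computed on CPM plus 1, and a gene was called higher or lower at a ratio of at least 1.5-fold, a log2 ratio of 0.58. Genes entered the comparison when their counts averaged 30 or more across the pair of libraries, which left 76 members. Of these, 16 were higher in the ADGRF4 siRNA library and 22 were lower, and 38 lay between the limits. The background over all 11771 compared symbols was 21.1% higher and 22.3% lower, so the members' 21.1% higher was near it and their 28.9% lower was above it by a few percentage points. At a limit of 2-fold, 6 members were higher and 14 lower, beside 7.84% and 10.4% of all compared symbols. The median log2 ratio of the members was 0.053, against -0.016 for all compared symbols, and the SD was 0.88 against 0.77. For groups of members the counts are also given after centring, where the median log2 ratio of genes with like GC content at the 3′ end is subtracted from each ratio.

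As a sum, the members took slightly more of the reads after ADGRF4 siRNA. They held 63594 counts, or 0.647% of the library, with ADGRF4 siRNA and 62919 counts, or 0.605%, with control siRNA. On the TMM scale these were 6815 CPM and 5748 CPM, a ratio of 1.19 (exact 95% interval 1.17 to 1.20, counting error only). Under total-count scaling the ratio was 1.07. The 22 lower members made up little of this sum, at 317 CPM with ADGRF4 siRNA and 751 CPM with control siRNA. The 16 higher members gave 2303 CPM and 1210 CPM.

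**Figure D1:**
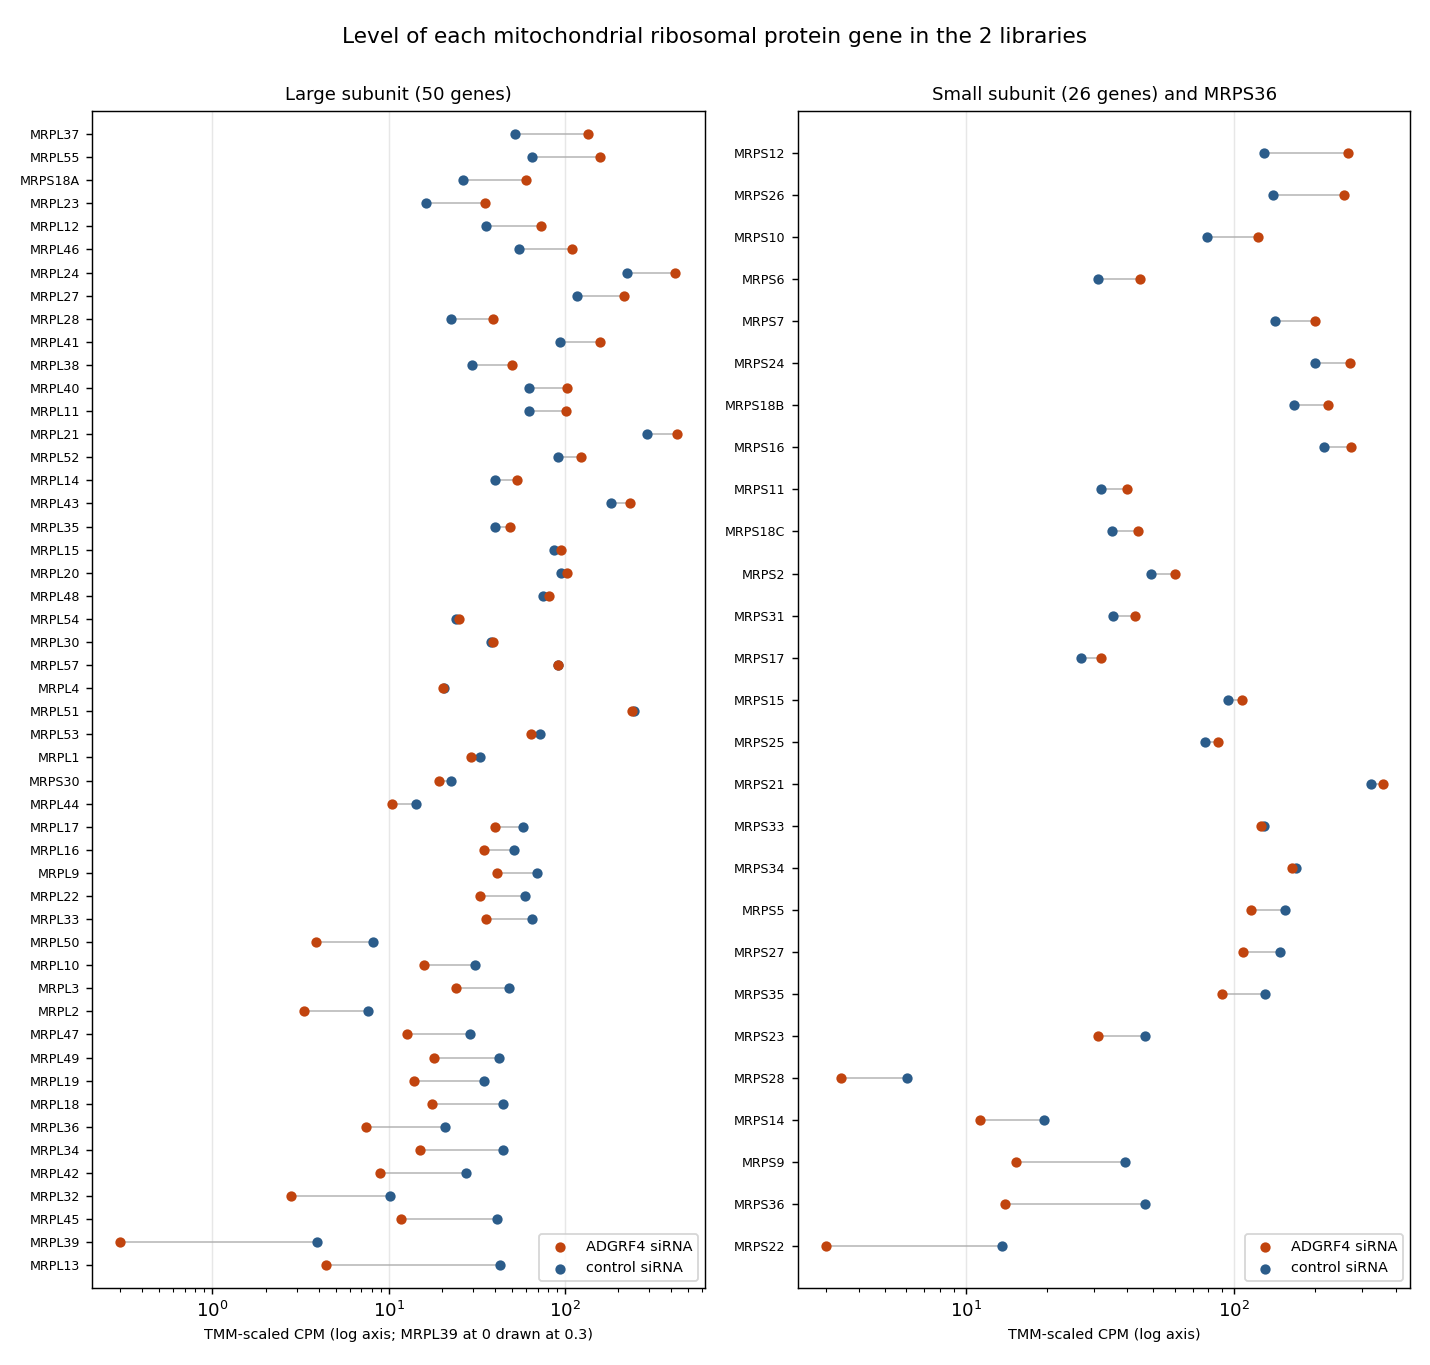
TMM-scaled CPM on a log axis for each of the 77 genes, with the large subunit on the left and the small subunit with MRPS36 on the right, ordered by log2 ratio. Orange points are the ADGRF4 siRNA library and blue points the control siRNA library, 1 library each and no error bars. Genes lower after ADGRF4 siRNA, at the bottom of each panel, sit mostly at low CPM, and MRPL39, with no count after ADGRF4 siRNA, is drawn at the left edge.

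The promoters of the members were searched for letters known from genes of mitochondrial function. A RefSeq promoter window (GRCh38.p14, 250 bases before to 50 after the annotated start) matched 69 members, and none was used for MRPL2, MRPL10, MRPL13, MRPL15, MRPL21, MRPL23, MRPL35 and MRPS28. The palindromic consensus of nuclear respiratory factor 1 (NRF1) was found on either strand in 8, or 11.6%, against 12.5% of 9344 compared symbols with a window. CCGGAAGT, a site of ETS factors such as GABP, was in 11 (15.9%, against 9.20%). The extended site of the zinc finger protein YY1, printed in capitals in the sequences that follow, was in 10 (14.5%, against 2.23%). Over all 27305 promoter windows these shares were 6.28%, 4.44% and 0.916%. A match describes letters and not binding.

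The 10 windows with the YY1 letters are shown because in 9 of them these letters lie just after the start, in genes that differ in direction between the libraries. The letters contain ATG, and their place relative to the start of translation was not examined. Each is 30 bases, 5′ to 3′ on the strand of the gene, with the matched letters in capitals and coordinates on GRCh38.p14.
MRPS18A (chr6:43687762-43687791, minus strand): aggtttttgAAGATGGCGGCcctcaaggct
MRPL46 (chr15:88467360-88467389, minus strand): ggagaacgaAAGATGGCGGCgcccgtaagg
MRPL38 (chr17:75904858-75904887, minus strand): gccggagggAAGATGGCGGCgccctggtgg
MRPS10 (chr6:42217832-42217861, minus strand): gggaccggcAAGATGGCGGCgcggacagcg
MRPS24 (chr7:43869478-43869507, minus strand): gcttggcccAAGATGGCGGCctccgtgtgc
MRPS18B (chr6:30617854-30617883, plus strand): gcgtacgtcAAGATGGCGGCgtctgtatta
MRPS30 (chr5:44808951-44808980, plus strand): tcgcgggcaAAGATGGCGGCggccaggtgt
MRPL22 (chr5:154941093-154941122, plus strand): gtagcgggagggcgaAAGATGGCGGCggca
MRPL50 (chr9:101398575-101398604, minus strand): atctcatcgAAGATGGCGGCgcgatctgtg
MRPL36 (chr5:1799855-1799884, minus strand): cccccccccGCCGCCATCTTccttcctggc
They are listed from the highest to the lowest log2 ratio, 1.16 for MRPS18A and -1.37 for MRPL36. In 9 of the 10 the letters read forward and begin 7 to 36 bases after the start, counted from 1 at the start. In MRPL36 they lie before the start and on the opposite strand. Of the 208 compared symbols with the letters, 149 (71.6%) also had them forward after the start. Of these 10 members, 4 were higher, 3 lower and 3 between, so the genes sharing the letters did not share a direction. The 58 compared members with a window but without the letters gave 11 higher and 15 lower. Over all compared symbols 21.1% were higher and 22.3% lower. After centring, 2 of the 10 were higher and 2 lower.

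Among the proteins of the large subunit, differences ran in both directions. MRPL37, a mitochondria-specific protein, had 1259 counts with ADGRF4 siRNA and 570 with control siRNA, 2.59-fold higher (exact 95% interval 2.35 to 2.87, counting error only, here and for the folds that follow). MRPL55, the counterpart of a bacterial large-subunit protein, stood 2.46-fold higher (2.24 to 2.69), at 1484 and 709 counts. MRPS18A, which despite its name is part of the large subunit, stood 2.28-fold higher (1.98 to 2.64), at 560 and 288 counts. These are the 3 highest ratios of all members. MRPL46 was at 1023 and 600 counts, 2.0-fold higher (1.81 to 2.22), and MRPL28 at 366 and 246, 1.74-fold higher (1.48 to 2.06).

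The lowest ratio of any compared member was that of MRPL13, a large-subunit protein with a bacterial homologue. It had 41 counts with ADGRF4 siRNA and 468 with control siRNA, 9.73-fold lower (7.06 to 13.7). MRPL32, whose maturation by a mitochondrial protease is a known step of ribosome assembly, was read 26 and 111 times, 3.64-fold lower (2.36 to 5.81). MRPL42 had 83 and 302 counts, 3.10-fold lower (2.42 to 4.0). All 3 are large-subunit proteins, and in each the interval lies well below equal levels. MRPL34 had 140 and 489 counts, 2.98-fold lower (2.46 to 3.62), and MRPL36 had 69 and 227, 2.81-fold lower (2.13 to 3.73), both small proteins with bacterial homologues.

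MRPL39 was the 1 member under the count limit. No count was found with ADGRF4 siRNA, against 43 with control siRNA. A count of 0 is compatible with up to 3 counts, which is 0.321 CPM in the ADGRF4 siRNA library, and against this floor the control level of 3.93 CPM makes MRPL39 at least 12.2-fold lower. That figure leaves out the counting error of the 43 counts, and the exact 95% interval of the fold begins at 9.52-fold lower. It is a mitochondria-specific protein of the large subunit whose fold resembles a tRNA synthetase.

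The small subunit held fewer large differences. Of its 26 compared genes, 3 were higher, 4 lower and 19, or 73.1%, between the limits. For the large subunit these numbers were 13, 17 and 19 (38.8%) of 49 compared, while 56.6% of all compared symbols lay between. The SD of the log2 ratios was 0.66 for the small subunit and 0.97 for the large, with medians of 0.20 and -0.02. After centring, 4 of 26 small-subunit genes were higher and 4 lower, against 3 higher and 19 lower of 49 in the large subunit. No test of the difference between subunits is given, since genes of 1 library pair are not replicates.

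MRPS12, which lies at the decoding centre, had 2465 counts with ADGRF4 siRNA and 1416 with control siRNA, 2.04-fold higher (1.91 to 2.18). The other higher genes of the small subunit were MRPS26, with 2383 and 1526 counts, 1.83-fold higher (1.72 to 1.96), and MRPS10, with 1148 and 869, 1.55-fold higher (1.42 to 1.69). On the lower side, MRPS22, a mitochondria-specific protein in which mutations cause a severe infantile mitochondrial disease, had 28 and 149 counts, 4.54-fold lower (3.02 to 7.06). MRPS9 had 144 and 430 counts, 2.55-fold lower (2.10 to 3.10). MRPS14 (105 and 213 counts) and MRPS28 (32 and 66) were 1.73-fold and 1.76-fold lower. MRPS36, the symbol that is no ribosomal subunit, had 130 and 508 counts, 3.33-fold lower (2.74 to 4.07).

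By evolutionary origin, the largest share of lower genes was among large-subunit proteins with bacterial homologues. There 13 of 30 were lower and 7 higher, with a median log2 ratio of -0.35, beside 22.3% lower and 21.1% higher among all compared symbols. After centring, 14 of these 30 were lower and 1 was higher, beside 19.1% lower and 15.0% higher among all. Of the 19 compared mitochondria-specific proteins of the large subunit, 4 were lower and 6 higher (median 0.07). In the small subunit, 3 of 16 with bacterial homologues were lower and 2 higher (median 0.30), and 1 of 10 mitochondria-specific proteins was lower and 1 higher (median -0.04). After centring, these last 3 groups had 5 lower and 2 higher, 2 lower and 3 higher, and 2 lower and 1 higher. Before centring all 4 groups had genes past the limit in both directions, as the plot of ratios by group shows.

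**Figure D2:**
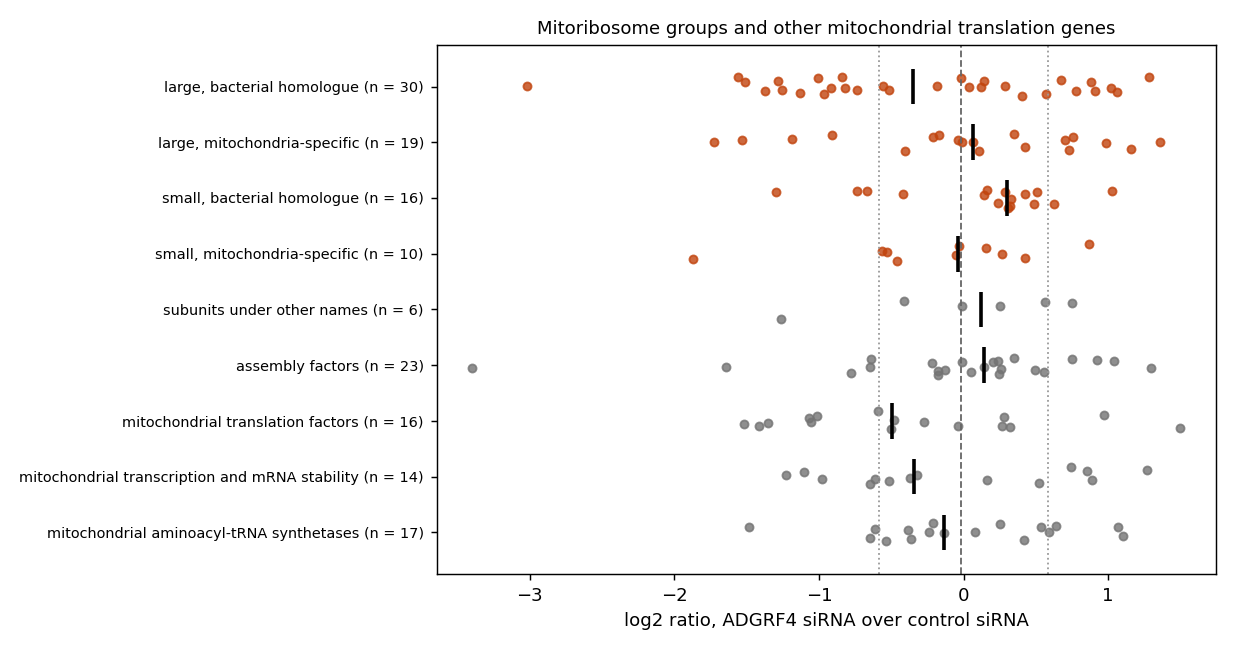
Log2 ratio, ADGRF4 siRNA over control siRNA, of each compared gene in 4 mitoribosome groups (orange) and in 5 lists of other genes of mitochondrial translation (grey), with points jittered in height. Black bars are medians, the dashed line is the median of all compared symbols (-0.016) and dotted lines mark 1.5-fold. Every list has genes on each side of 0, and the translation factors have the lowest median, -0.49.

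Neighbouring proteins of the assembled particle differed in direction. In the stalk, which recruits translation factors, MRPL12 had 682 counts with ADGRF4 siRNA and 390 with control siRNA, 2.05-fold higher (1.81 to 2.33). MRPL10, the protein to which MRPL12 binds, had 148 and 337 counts, 1.94-fold lower (1.6 to 2.37). MRPL11, at the stalk base, was 1.6-fold higher (940 and 688 counts), and MRPL53 lay between the limits (595 and 785). The stalk thus gave 2 higher, 1 lower and 1 between, and after centring 1 higher and 2 lower. Of all compared symbols 21.1% were higher and 22.3% lower, and after centring 15.0% and 19.1%.

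Of the 6 genes listed here for the central protuberance, 4 were higher and 1 lower, beside 21.1% and 22.3% of all compared symbols. After centring, 1 of the 6 was higher and 1 lower, and the median log2 ratio was 0.20, in place of 0.72. MRPL27 had 2015 and 1276 counts, 1.85-fold higher (1.73 to 1.99), and MRPL38 and MRPL40 were 1.68-fold and 1.64-fold higher, beside MRPL46 above. The exception was MRPL18, with 164 and 484 counts, 2.52-fold lower (2.10 to 3.02). MRPL48 lay between, at 756 and 821 counts.

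Around the exit of the polypeptide tunnel, where the new chain leaves the ribosome, 3 of 7 compared genes were lower, 2 higher and 2 between. After centring 3 were lower and none higher. The shares over all compared symbols were 22.3% lower and 21.1% higher, and after centring 19.1% and 15.0%. MRPL45, which links the ribosome to the inner membrane, had 110 and 452 counts, 3.50-fold lower (2.84 to 4.35). MRPL47 was 2.28-fold lower (118 and 316 counts) and MRPL22 1.79-fold lower (309 and 649), and MRPL39, described above, also belongs here. In contrast, MRPL23 had 328 and 179 counts, 2.15-fold higher (1.79 to 2.59), and MRPL24 had 3933 and 2458, 1.88-fold higher (1.78 to 1.97). MRPL17 (372 and 630 counts) and MRPL44 (98 and 156) lay between. Of the 5 genes on the decoding side of the small subunit, MRPS12 was higher, and MRPS2 (560 and 537 counts), MRPS5 (1078 and 1692), MRPS7 (1858 and 1555) and MRPS11 (373 and 348) lay between. After centring, 1 of these 5 was higher and 1 lower, beside the same shares of all compared symbols.

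The 3 MRPS18 genes are related proteins that sit at different places in the mitoribosome. MRPS18A, in the large subunit, was 2.28-fold higher, as given above. MRPS18B had 2089 counts with ADGRF4 siRNA and 1826 with control siRNA, a ratio of 1.34 (1.26 to 1.43), and MRPS18C had 409 and 385, a ratio of 1.25 (1.08 to 1.44). The intervals of MRPS18B and MRPS18C overlap each other and lie below that of MRPS18A. After centring the 3 genes lay closer together. Their centred log2 ratios were 0.577 for MRPS18A, 0.463 for MRPS18B and 0.551 for MRPS18C, all short of the limit. MRPS18B was listed on 7 rows, of which 1 held all its counts.

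The limit of 1.5-fold passed through a run of similar values. Just above it were MRPS10 (log2 ratio 0.63), MRPL11 (0.67) and MRPL40 (0.70), and just below it MRPL21 (0.57), MRPS6 (0.50) and MRPS7 (0.48). On the lower side, MRPS28 (-0.67), MRPL9 (-0.74) and MRPS14 (-0.74) were just past the limit, and MRPS23 (-0.56), MRPL16 (-0.56) and MRPS35 (-0.53) just short of it. The remaining called genes were MRPL41, 1.7-fold higher, and, lower, MRPL33 by 1.82-fold, MRPL3 by 1.99-fold, MRPL50 by 2.11-fold, MRPL2 by 2.31-fold, MRPL49 by 2.34-fold and MRPL19 by 2.49-fold. The counting interval excluded equal levels for all 38 called members and for 65 of the 76 compared, 85.5%, against 72.2% of all compared symbols. The 38 members between the limits had 98 to 4049 counts with ADGRF4 siRNA and 156 to 3545 with control siRNA.

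The ratio of a member followed its base composition, as it did for other genes. 3′ GC is the share of G and C among the final 300 bases of a gene's longest annotated transcript. Across the 76 members, Pearson's r between log2 ratio and 3′ GC was 0.54 and Spearman's rho 0.60, against 0.44 and 0.46 over 11505 compared symbols with a value. The relation was closer in the large subunit (0.63 and 0.67, n = 49) than in the small (0.27 and 0.37, n = 26). These are descriptions, without a test, of genes read in the same 2 libraries. In the 26 members with the lowest 3′ GC (23.3% to 39.0%), none was higher and 12 were lower, with a median log2 ratio of -0.56. All compared symbols of that range had a median of -0.29, with 6.35% higher and 31.6% lower. In the 25 with the highest (47.3% to 69.3%), 12 (48%) were higher and 1, MRPL36, was lower (4%), with a median of 0.57. All compared symbols of that range had a median of 0.52, with 45.5% higher and 9.38% lower, so the higher share was near it. The median 3′ GC was 52.2% for higher members and 37.0% for lower ones.

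When each ratio was centred on the median of genes with like 3′ GC, the higher and the lower counts moved unequally. With centring, 7 members were higher and 24 lower, in place of 16 and 22, where the background was 15.0% higher and 19.1% lower. Of the 16 higher members 5 remained so, and of the 22 lower members 19 did. MRPL37 kept a centred log2 ratio of 1.29 and MRPL46 one of 0.91, while MRPL12, with 68.3% 3′ GC, had 0.19 and MRPL41, with 61.0%, had -0.07. Centred values were -2.72 for MRPL13, -1.90 for MRPL36 and -1.71 for MRPS22. The part of base composition in the difference between the libraries was not tested.

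**Figure D3:**
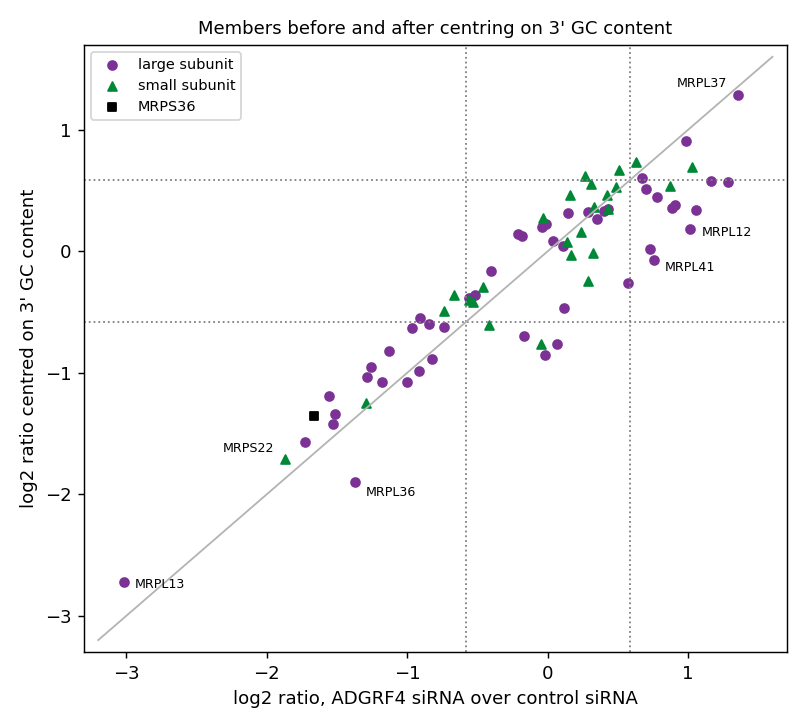
Log2 ratio of each compared member before (x axis) and after (y axis) centring on 3′ GC content, by subunit, with dotted lines at 1.5-fold and a grey line of equal values. MRPL13 and MRPS22 stay low at -2.72 and -1.71, whereas MRPL12 and MRPL41 lie at 0.19 and -0.07 after centring.

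Low mean count and a lower ratio went together among the members. The mean is made of the same counts as the ratio. A low ADGRF4 siRNA count lowers both, whereas a low control siRNA count lowers the mean and raises the ratio. The part of these shared counts in the relation was not tested. MRPL13 and MRPL45, with 468 and 452 counts with control siRNA but 41 and 110 with ADGRF4 siRNA, had mean counts under 300. Of the 20 compared members with a mean count under 300, 14 (70.0%) were lower and 1, MRPL23, was higher. Of all compared symbols under 300, 27.1% were lower. At 300 to 1000 counts, 8 of 33 members (24.2%) were lower and 8 (24.2%) higher. All compared symbols of that range had 18.1% lower and 22.6% higher. Of the 23 members at 1000 counts or more, none was lower and 7 were higher. All compared symbols of that range had 13.6% lower and 28.5% higher. After centring, 13 of the 20 members under 300 were lower and none higher. Of the 33 at 300 to 1000, 9 were then lower and 5 higher, and of the 23 at 1000 or more, 2 and 2. The centred background over all compared symbols was 19.1% lower and 15.0% higher.

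Across the members, Pearson's r between log2 ratio and log10 mean count was 0.57 (Spearman 0.58, n = 76), and over all compared symbols it was 0.15 (0.16). With centred ratios it was 0.53 for the members and 0.14 for all. It was 0.58 in the large subunit (n = 49) and 0.59 in the small (n = 26). For comparison it was 0.36 for 80 cytosolic ribosomal protein genes and 0.55 for 38 NDUF genes of respiratory complex I. 3′ GC and abundance were themselves related among members (r = 0.35), and these values describe genes that share libraries and depth. The mean count is also made of the same counts as the ratio, so mean count and ratio are not independent.

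**Figure D4:**
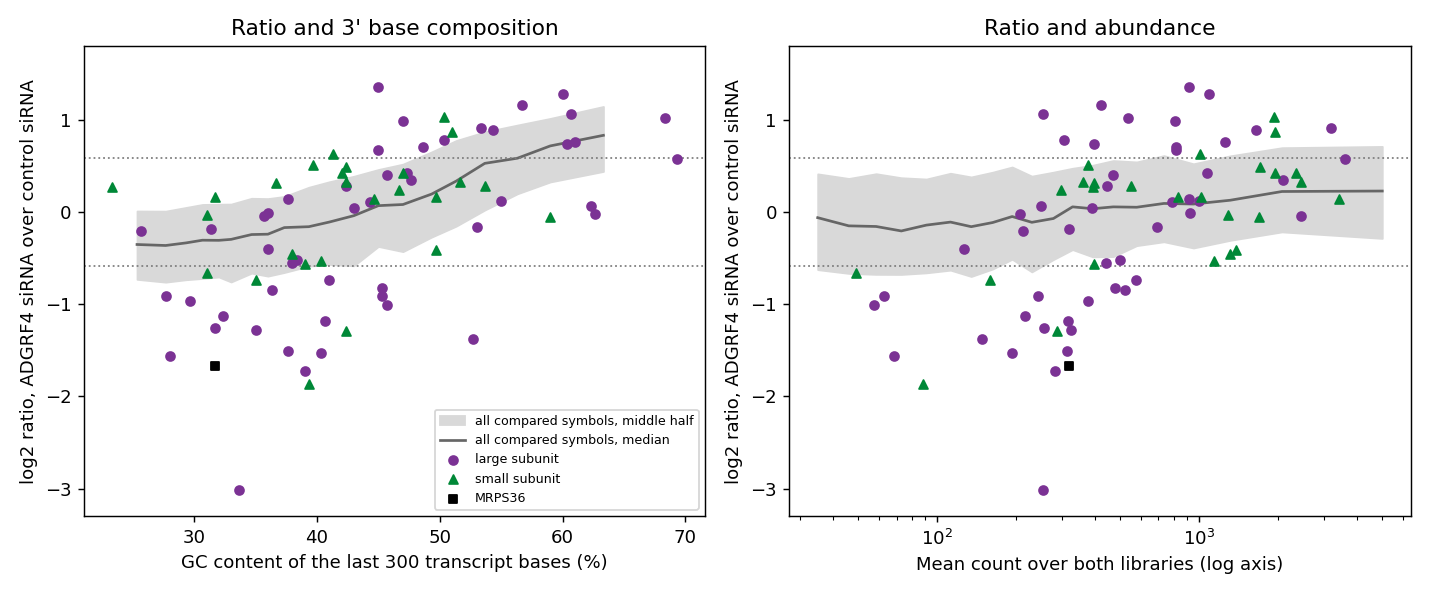
Log2 ratio of each compared member, ADGRF4 siRNA over control siRNA, against the GC content of the last 300 transcript bases (left, %) and against the mean count over both libraries (right, log axis), by subunit. Grey lines and bands are the median and the range between quartiles of all compared symbols in 20 bins, and dotted lines mark 1.5-fold. Higher members lie mostly at higher GC, and of the 20 members with mean counts under 300, 14 lie below the lower dotted line. The mean count is made of the same counts as the ratio and is not independent of it.

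Complex I, whose mitochondrially made subunits are products of these ribosomes, showed a similar scatter in its nuclear NDUF genes. Of 38, 9 (23.7%) were higher and 11 (28.95%) lower, beside 21.1% and 22.3% of all compared symbols. Their median log2 ratio was 0.18 and the SD 0.99. Of 80 compared cytosolic ribosomal protein genes, 15 (18.75%) were higher and 18 (22.5%) lower, near those shares, with a median of -0.08 and an SD of 0.78. The SD of the mitoribosomal members, 0.88, lay between these. After centring, 9 of the 38 NDUF genes were higher and 11 lower, and 12 of the 80 cytosolic genes were higher and 23 lower. For the 76 mitoribosomal members these counts were 7 and 24, and for all compared symbols the shares were 15.0% and 19.1%. All 3 sets were read in the same 2 libraries.

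Subunits of the mitoribosome that carry other names gave 1 higher, 1 lower and 4 between among 6. The background was again 21.1% higher and 22.3% lower. DAP3, a GTP-binding protein of the small subunit, had 232 and 669 counts, 2.46-fold lower (2.11 to 2.87), and AURKAIP1 had 2414 and 1681, 1.68-fold higher (1.58 to 1.79). CHCHD1 (505 and 790 counts) and GADD45GIP1 (994 and 787) lay between.

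Factors that act with the mitoribosome also went both ways. Of 16 translation factors, 7 (43.75%) were lower and 2 (12.5%) higher, beside 22.3% and 21.1% of all compared symbols. Their median log2 ratio was -0.49. TSFM, the exchange factor of mitochondrial elongation factor Tu, had 73 and 266 counts, 3.11-fold lower (2.39 to 4.08). MTFMT, which formylates the initiator tRNA, was 2.72-fold lower (91 and 290 counts) and the release factor MTRF1 3.23-fold lower (28 and 106). The 2 higher factors were elongation factor Tu itself, TUFM (3750 and 2242 counts), named after its value was seen, and TACO1. TACO1, an activator of cytochrome oxidase subunit I translation, had 871 and 355 counts, 2.88-fold higher (2.54 to 3.26). After centring on 3′ GC the median of the 16 was -0.34, with 6 lower and 3 higher, beside 19.1% and 15.0% of all.

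Of 23 compared assembly factors, 5 (21.7%) were lower and 4 (17.4%) higher (median 0.14), beside 22.3% and 21.1% of all compared symbols. METTL17, which binds the small subunit during assembly, had 12 and 253 counts, a log2 ratio of -3.40 and the lowest value in all these lists. C1QBP, a matrix protein linked to ribosome formation, had 294 and 1101, 3.19-fold lower (2.80 to 3.64). The ribosomal RNA methyltransferases MRM1 (141 and 61 counts) and MRM3, listed as RNMTL1 (410 and 228), were 2.71-fold and 2.11-fold higher. Of 14 genes of mitochondrial transcription and messenger RNA stability, 5 (35.7%) were lower and 4 (28.6%) higher. Mitochondrial RNA polymerase, POLRMT, had 306 and 143 counts, 2.51-fold higher (2.05 to 3.08). TFAM, its DNA-packaging and initiation partner, had 305 and 854, 2.39-fold lower (2.09 to 2.73). The elongation factor TEFM (18 and 58 counts) and the poly(A) polymerase MTPAP (82 and 200) were 2.75-fold and 2.08-fold lower.

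Of 17 compared mitochondrial aminoacyl-tRNA synthetases, 4 (23.5%) were higher and 3 (17.65%) lower, beside 21.1% and 22.3% of all compared symbols. TARS2 was 3.05-fold lower (66 and 236 counts) and NARS2 1.84-fold lower (19 and 41), and CARS2 was 2.13-fold higher (664 and 365). SARS2 had 1211 and 655 counts, 2.17-fold higher (1.97 to 2.39), next to the 2.04-fold of MRPS12, whose exons it overlaps on the other strand.

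Such overlaps limit what the counts of some members mean, because the strand setting of the counting is not given in the sources used here. For 29 members, exons of another gene lie opposite their own, 6 of the 16 higher and 11 of the 22 lower members among them. The partner of MRPL13, MTBP, had 17 counts with ADGRF4 siRNA and 7 with control siRNA, beside 41 and 468 of MRPL13. The part of overlap in these counts was not tested. COPB2, which overlaps MRPS22, had 314 and 660 counts, and PSMA2, which overlaps MRPL32, had 342 and 659. The 47 compared members without such an overlap gave 10 higher and 11 lower, beside 21.1% and 22.3% of all compared symbols. After centring they gave 4 higher and 13 lower, and the 29 with an overlap gave 3 higher and 11 lower. The centred background was 15.0% higher and 19.1% lower. Processed pseudogenes named after 34 members could share their reads. These members gave 4 higher and 10 lower, against 12 and 12 of the 42 compared without one. After centring, those with a pseudogene gave 4 higher and 11 lower, and those without gave 3 higher and 13 lower.

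None of the 13 protein-coding genes of the mitochondrial genome was analysed here, so the messenger RNAs that mitoribosomes translate cannot be set beside these values.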

How the data were processed

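Trizol-extracted RNA was made into 3′ end libraries with a QuantSeq kit from Lexogen, per the labels' protocols. The deposited files hold unnormalized counts for each gene symbol. Bowtie2, edgeR and hg19 are named in the submitters' processing notes. The sources used here do not state their roles and versions, the annotation, the strand setting or the handling of reads with several positions.

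Rows of 1 symbol were summed (25737 rows, 24462 symbols; 83 rows for the members). TMM factors came from edgeR 4.0.16 under R 4.3.3, and no model was fitted. Log2 ratios used a pseudocount of 1 CPM. Folds were taken on scaled CPM with no pseudocount and have exact (Clopper-Pearson) 95% intervals that cover counting error only, since reads carry no molecular identifiers. 3′ GC came from GENCODE 29 transcripts (GRCh38), which may end elsewhere than the 3′ end read, for 97.7% of compared symbols and all 76 members, and centring used 20 bins. An older symbol was matched to a current one only where it pointed to 1 gene without a row of its own in the files. Overlaps and pseudogenes came from the same annotation, and promoters from RefSeq. Motifs were exact letters on both strands of each window: CCGGAAGT for ETS factors and the consensus letters of NRF1 and YY1. Python 3.11.15, pandas 2.3.3 and scipy 1.17.1 were used. The calculation was tested on simulated data.

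The members and lists were chosen with earlier results of these data known. MRP63, on the list of subunits with other names, is the member MRPL57 and was counted only there. Named genes were the 10 highest and 10 lowest members, those of the structural lists, those nearest the 1.5-fold limits, members under the count limit, the MRPS18 genes and up to 4 genes of each other list, and further called members are given by their fold. Alternatives were 3 other scalings, 2 pseudocounts, 3 count limits, a 2-fold limit, centring on 3′ GC and the largest row of each symbol.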

Additional observations from a re-analysis of the deposited data

How the results depend on the processing

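Counts of higher (16) and lower (22) members stayed within 1.5 times under total-count, DESeq2 1.42.0 and upper-quartile scaling, pseudocounts of 0.1 and 5 CPM, count limits of 10, 100 and none, and use of the largest row. Centring on 3′ GC gave 7 higher and 24 lower, and the 2-fold limit 6 and 14. Total-count scaling moved the median of all compared symbols from -0.02 to -0.16 and the members' median from 0.05 to -0.09, with 13 higher and 27 lower. The ratio of the members' summed CPM was 1.07 with total-count and 1.17 with upper-quartile scaling. Of the called members, MRPL41 changed sign on centring, to -0.0744. Medians of both subunits moved by less than 0.19, the median counting half-width in log2 units, in every alternative run. No paired analysis was possible because each treatment has 1 library, and for the same reason no library could be left out. Genes near 30 counts are the least precise, and no error between cultures was measured.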

Other observations

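Rows named after members but outside the naming rule held few counts. The pseudogene rows MRPS31P5, MRPL42P5 and MRPL45P2 had 48, 15 and 19 counts with ADGRF4 siRNA and 38, 26 and 24 with control siRNA, and MRPL23-AS1, the antisense partner of MRPL23, had 0 in each library.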
